A study of Homo sapiens with 9 samples.

Results

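The insulin-like growth factor (IGF) axis was examined in A549 cells, a human lung adenocarcinoma cell line, through 6 binding proteins (IGFBP1, IGFBP2, IGFBP3, IGFBP4, IGFBP6 and IGFBP7), 2 receptors (IGF1R and IGF2R) and 2 adaptors (IRS1 and IRS2). The genes were taken by name, and every non-control probe annotated to a RefSeq transcript of any of them was used. They amounted to 11 probes for 10 genes, of 50599 probes and 21743 named genes on the array, with 2 probes for IRS1 and 1 for each other gene. All 11 probes were well above background on all 9 arrays.

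The study set A549 cells transduced with OCT3/4, SOX2 and KLF4 (OSK) by retrovirus against parental A549 cells, to ask which genes go with the stem cell-like properties of the former. The parental A549 cells carried no OSK vector and were at passages P98, P98 and P99 in replicates 1, 2 and 3. The OSK-A549-Colony cells, called cancer stem-like by the study, were colonies that stayed on the dish after a short trypsin treatment and were picked up, and the OSK-A549-SN cells were the spindle-shaped cells that came off first, called differentiated and not stem-like. Both were at passages P106, P107 and P106. Each group had 3 arrays, with RNA from 3 independent transduction experiments per the methods, and no array of cells with an empty or EGFP vector was analysed here. Since all transduced arrays came from later passages than all parental arrays, transduction and passage cannot be told apart.

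IGF1 and IGF2 are secreted growth factors that signal through IGF1R, a receptor tyrosine kinase. Active IGF1R phosphorylates the adaptors IRS1 and IRS2, which recruit phosphatidylinositol 3-kinase (PI3K) and so activate AKT, and AKT keeps the FOXO transcription factors out of the nucleus. The binding proteins hold the ligands outside the cell, proteases such as PAPPA release them again, and IGF2R takes IGF2 into the cell for degradation. IGFBP7 binds IGFs only weakly and is also known as a matrix-associated protein of blood vessels.

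The levels are log2 intensities relative to the 75th percentile of the same array, so a level of 0 is the 75th percentile, and differences are log2 fold changes from limma with their standard errors (SE). Within groups the arrays correlated at 0.983 to 0.993 among parental, 0.994 to 0.997 among Colony and 0.987 to 0.996 among SN arrays over the 23761 probes detected on all arrays. Such correlations of levels do not exclude differences in single genes. The median SD of a probe was 0.210 in parental, 0.091 in Colony and 0.161 in SN arrays. The 6 epithelial markers tested (EPCAM, CDH1, KRT7, KRT8, KRT18 and KRT19) were well above background on all 9 arrays. Their summed linear level was 1589 to 1790 times the 75th percentile in parental, 1486 to 1579 in Colony and 1506 to 1847 in SN arrays. None of the 6 was called, but within this sum CDH1 (E-cadherin) was at 3.26, 3.26 and 3.75 in parental against 2.44, 2.49 and 2.35 in Colony arrays, and KRT19 was at 3.53, 3.29 and 3.83 against 4.15, 4.93 and 5.09. In SN arrays CDH1 was at 2.44, 2.71 and 2.62, also below every parental array, and KRT19 was at 3.22, 3.67 and 3.60. Of 6 fibroblast markers none passed this on all arrays, and COL1A2, COL3A1, DCN, LUM and PDGFRB passed it on no array. Of 5 endothelial markers, PECAM1 and TEK passed it on no array. By the brightest probe of each gene, the endothelial markers CDH5 and VWF and the leukocyte markers CD14, CD68 and PTPRC were above background on all 9 arrays. For CDH5, VWF and PTPRC these probes were dim, the highest value being -2.02, for CDH5 in SN replicate 3. The PTPRC probes A_23_P12392, A_33_P3364811 and A_33_P3364821 were well above background on no array. The PTPRC probe A_33_P3309526 and the VWF probe A_23_P105562 were so on only some arrays. The summed level of the 4 leukocyte markers was 3.55 to 8.98 in parental, 4.24 to 4.87 in Colony and 5.33 to 6.44 in SN arrays. Of these, CD68 was called higher in Colony than in parental cells, at 1.04, 1.08 and 0.88 against -0.17, -0.19 and 0.25, and it was at 1.13, 1.07 and 0.79 in SN arrays. The other 3 leukocyte markers had lower means in Colony than in parental cells and were not called. CD14, for example, was at 1.02, 1.39 and 1.33 against 1.27, 1.78 and 2.92. The part of these markers in the results was not tested.

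Replicate 3 of both transduced groups stood apart in KLF4 and in 1 POU5F1 probe. KLF4 was at -2.34, -2.48 and -2.28 in parental, at 1.50, 0.33 and -0.61 in Colony and at 1.08, 0.55 and -1.33 in SN arrays. A POU5F1 (OCT3/4) probe, A_24_P144601, was at -1.75, -2.45 and -2.15 in parental cells, at 1.48, 0.65 and -1.84 in Colony and at 1.73, 0.80 and -1.97 in SN cells, so that replicate 3 of both transduced groups lay within the parental range. The other POU5F1 probe lay at 1.27 to 1.60 in parental, 0.56 to 1.42 in Colony and 0.69 to 1.52 in SN arrays, and the SOX2 probe was at -4.25, -1.47 and -2.96 in parental, at -2.88, -3.54 and -2.80 in Colony and at -2.38, -2.50 and -1.66 in SN arrays, with replicate 3 the highest of both transduced groups and within the parental range. Whether these probes read the vectors' transcripts is not given in the sources used here. For IGFBP7, IGFBP3, IGFBP1 and IGFBP6, values are also given without the replicate 3 arrays.

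The promoters of IRS2, IGFBP3 and IGFBP6 are shown because IRS2 and IGFBP3 were the members with an adjusted p under 0.05 and because IRS2 and IGFBP6 were the members whose windows held a FOXO-type motif. The windows are the 250 bases before the transcription start from RefSeq (GRCh38.p14), written 5′ to 3′ on the strand of the gene, with the motif in capitals.
IRS2, chr13:109786584-109786833, minus strand: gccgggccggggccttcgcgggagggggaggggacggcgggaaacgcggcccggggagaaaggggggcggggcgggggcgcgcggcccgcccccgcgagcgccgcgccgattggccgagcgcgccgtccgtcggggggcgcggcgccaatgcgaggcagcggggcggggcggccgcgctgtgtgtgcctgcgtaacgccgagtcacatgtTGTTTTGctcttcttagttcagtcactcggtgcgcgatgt
IGFBP3, chr7:45921273-45921522, minus strand: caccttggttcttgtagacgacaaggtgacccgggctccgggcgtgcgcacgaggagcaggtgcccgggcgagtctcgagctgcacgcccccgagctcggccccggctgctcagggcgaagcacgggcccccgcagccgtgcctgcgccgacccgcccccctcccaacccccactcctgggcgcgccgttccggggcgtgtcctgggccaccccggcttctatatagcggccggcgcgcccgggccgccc
IGFBP6, chr12:53097417-53097666, plus strand: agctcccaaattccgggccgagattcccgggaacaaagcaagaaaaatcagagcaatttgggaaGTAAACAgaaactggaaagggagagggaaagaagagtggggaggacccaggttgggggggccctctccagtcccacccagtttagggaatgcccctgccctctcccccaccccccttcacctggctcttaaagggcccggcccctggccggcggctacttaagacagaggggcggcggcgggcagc
The first motif searched on both strands was GTAAACA, the forkhead core. The second was TGTTTTG and the third was TATTTTG, which stand for the insulin-response element. No match overlapped another in the members' windows. IRS2 held TGTTTTG at 40 to 34 bases before the start, IGFBP6 held GTAAACA at 186 to 180 bases before it, and IGFBP3 held none. A window was given for 8 of the 10 members, 10 windows in all, and the other windows, of IGF1R, IGF2R, IGFBP2, IGFBP4 and IRS1, held none. IGFBP1 and IGFBP7 had no window and were not searched. Of 35116 windows of all genes, 2.979% held GTAAACA, 4.303% TGTTTTG, 3.944% TATTTTG and 10.491% any of them. The members' windows had 56.4% to 81.2% G and C, against a median of 58.0% over all windows.

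**Figure D1:**
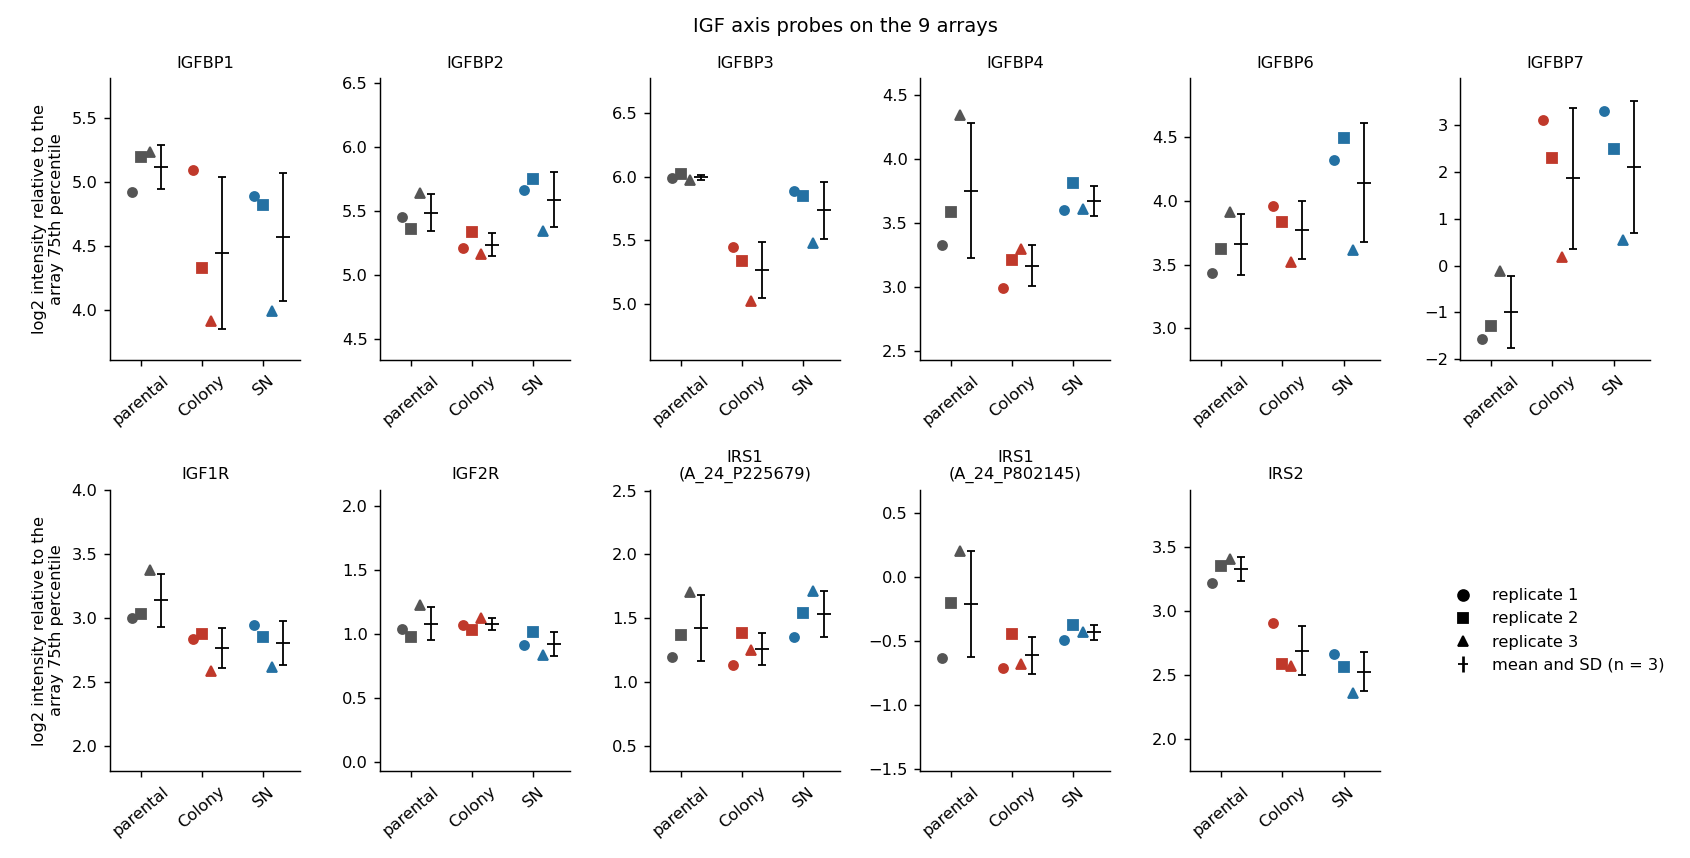
Log2 intensity relative to the array's 75th percentile (vertical axes, each with its own range) of the 11 probes by group (parental A549 left, Colony in the middle, SN right), with a symbol for each replicate and the mean and SD of 3 arrays in black. IGFBP7 lay higher on every transduced array than on every parental array, and IRS2 and IGFBP3 lay lower.

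Of the binding proteins, IGFBP7 differed most between transduced and parental cells and IGFBP3 was the only one with an adjusted p under 0.05. IGFBP7 was at -1.57, -1.30 and -0.11 in parental A549 cells, at 3.10, 2.30 and 0.17 in OSK-A549-Colony cells and at 3.29, 2.49 and 0.55 in OSK-A549-SN cells. All 6 transduced arrays were above all 3 parental arrays, and in both transduced groups replicate 3 lay far below the other two and near parental replicate 3. The mean was 7.21-fold higher in Colony than in parental cells (log2 fold change 2.85, SE 0.83, limma adjusted p = 0.0861), which placed the probe at rank 110 of 30869 by size of change. In SN cells it was 8.58-fold higher (3.10, SE 0.77, limma adjusted p = 0.101), rank 75 of 32222. Neither difference passed the threshold of 0.05, but both did (limma adjusted p = 0.0368 and 0.0379) when only probes detected on all arrays of at least 1 group were tested. Without Colony replicate 3 the log2 fold change was 3.69 (limma adjusted p = 0.0803), and without SN replicate 3 it was 3.88 (limma adjusted p = 0.0649). Without replicate 1 of the transduced group the values were lower, 2.23 in Colony (limma adjusted p = 0.185) and 2.51 in SN cells (limma adjusted p = 0.246), and normexp background correction gave 2.20 and 2.46. Between Colony and SN cells the difference was -0.25 with a 95% interval of -2.76 to 2.26, and -0.19 without replicate 3 of both groups. That interval comes from a fit that does not pair the arrays, and within replicates 1, 2 and 3 Colony minus SN was -0.19, -0.19 and -0.38 (limma adjusted p = 0.320 with the replicate number as a block). SN replicate 3 was also the only array on its slide. In RNA pooled from many cells, a higher share of expressing cells and more RNA per cell cannot be told apart.

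IGFBP3, the main carrier of IGFs in blood, was at 5.99, 6.02 and 5.97 in parental cells and at 5.45, 5.34 and 5.03 in Colony cells. The groups did not overlap, and the parental arrays had an SD of only 0.0216. IGFBP3 fell by 0.72 on the log2 scale in Colony cells (SE 0.14, 1.65-fold, limma adjusted p = 0.0383), a change under the fold change of 2 set for a call. The adjusted p lay between 0.0129 and 0.137 under the alternatives tried and was over 0.05 in 5 of the 6 fits that left out 1 array, the exception being the fit without parental replicate 3. In SN cells it was at 5.88, 5.85 and 5.48, also below every parental array, with a difference of -0.26 (SE 0.15, limma adjusted p = 0.386) that was -0.13 without SN replicate 3. The difference of Colony from parental cells was -0.60 without Colony replicate 3. Colony minus SN was -0.46 (SE 0.17, limma adjusted p = 0.228) in the fit that does not pair the arrays. Within replicates 1, 2 and 3 it was -0.44, -0.50 and -0.45.

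IGFBP4, an inhibitory binding protein that PAPPA cleaves, was at 2.99, 3.21 and 3.30 in Colony, at 3.60, 3.81 and 3.61 in SN and at 3.33, 3.59 and 4.34 in parental cells. The Colony arrays lay below all others, while the parental arrays spread widely because of replicate 3. The difference between Colony and SN was -0.51 (SE 0.12, 1.42-fold, 95% interval -0.81 to -0.21) with an unadjusted p of 0.0063 and a limma adjusted p = 0.138. Against parental cells it was -0.59 in Colony (SE 0.28, limma adjusted p = 0.226) and -0.08 in SN cells (SE 0.28, limma adjusted p = 0.887). Without parental replicate 3 they became -0.29 and 0.22.

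IGFBP2, which is abundant in many tumours, was at 5.21, 5.34 and 5.16 in Colony, at 5.67, 5.76 and 5.35 in SN and at 5.45, 5.36 and 5.65 in parental cells. Here too the Colony arrays were below all others, by 0.35 (SE 0.13, limma adjusted p = 0.241) against SN and by 0.25 (SE 0.12, limma adjusted p = 0.226) against parental cells, neither past the threshold. IGFBP1, which insulin represses in liver, was at 4.92, 5.20 and 5.24 in parental, at 5.09, 4.33 and 3.91 in Colony and at 4.89, 4.82 and 3.99 in SN cells. Replicate 3 was again the lowest of both transduced groups, and the differences from parental cells were -0.67 (SE 0.31, limma adjusted p = 0.214) in Colony and -0.55 (SE 0.27, limma adjusted p = 0.311) in SN cells. Without Colony replicate 3 the first was -0.41 and without Colony replicate 1 it was -0.997, and without SN replicate 3 the second was -0.26. IGFBP6, which prefers IGF2, was at 3.44, 3.62 and 3.91 in parental, at 3.96, 3.83 and 3.52 in Colony and at 4.32, 4.49 and 3.61 in SN cells, and its groups overlapped in every comparison. Its difference from parental cells was 0.11 in Colony and 0.48 in SN cells, and 0.24 and 0.75 without replicate 3 of the transduced group, with limma adjusted p of 0.152 or more in these 4 fits.

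Of the adaptors, IRS2 was lower in both kinds of transduced cells and neither IRS1 probe passed the threshold. IRS2 was at 3.22, 3.35 and 3.41 in parental cells, at 2.91, 2.59 and 2.57 in Colony cells and at 2.67, 2.56 and 2.36 in SN cells. Every transduced array was below every parental array. IRS2 fell by 0.64 in Colony cells (SE 0.13, 1.55-fold, limma adjusted p = 0.0459). The adjusted p was 0.0159 to 0.170 under the alternatives and over 0.05 in all 6 fits that left out 1 array. In SN cells the difference was larger, at -0.80 (SE 0.14, 1.74-fold, 95% interval -1.15 to -0.45), but the limma adjusted p was 0.0576 (0.0127 to 0.209 under the alternatives). Between Colony and SN cells it was 0.16 with a 95% interval of -0.18 to 0.51. The brighter IRS1 probe, A_24_P225679, was at 1.20, 1.37 and 1.70 in parental, at 1.13, 1.39 and 1.26 in Colony and at 1.35, 1.54 and 1.71 in SN cells. The dimmer IRS1 probe, A_24_P802145, ranged from -0.71 to 0.20 over the 9 arrays. The 2 probes differed in sign for SN against parental cells, at 0.11 (SE 0.19) and -0.22 (SE 0.23), and the smallest limma adjusted p of either in any comparison was 0.301.

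The receptors differed little between the groups. IGF1R was at 3.00, 3.03 and 3.38 in parental, at 2.83, 2.88 and 2.59 in Colony and at 2.95, 2.85 and 2.62 in SN cells, so that all transduced arrays lay below all parental arrays. The differences were -0.37 (SE 0.15, limma adjusted p = 0.170) in Colony and -0.33 (SE 0.17, limma adjusted p = 0.318) in SN cells, and -0.04 between them (95% interval -0.37 to 0.29). IGF2R lay between 0.83 and 1.23 on all 9 arrays. Its Colony value differed from the parental one by -0.003383 (95% interval -0.27 to 0.27), and the SN value by -0.16 (-0.49 to 0.17).

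**Figure D2:**
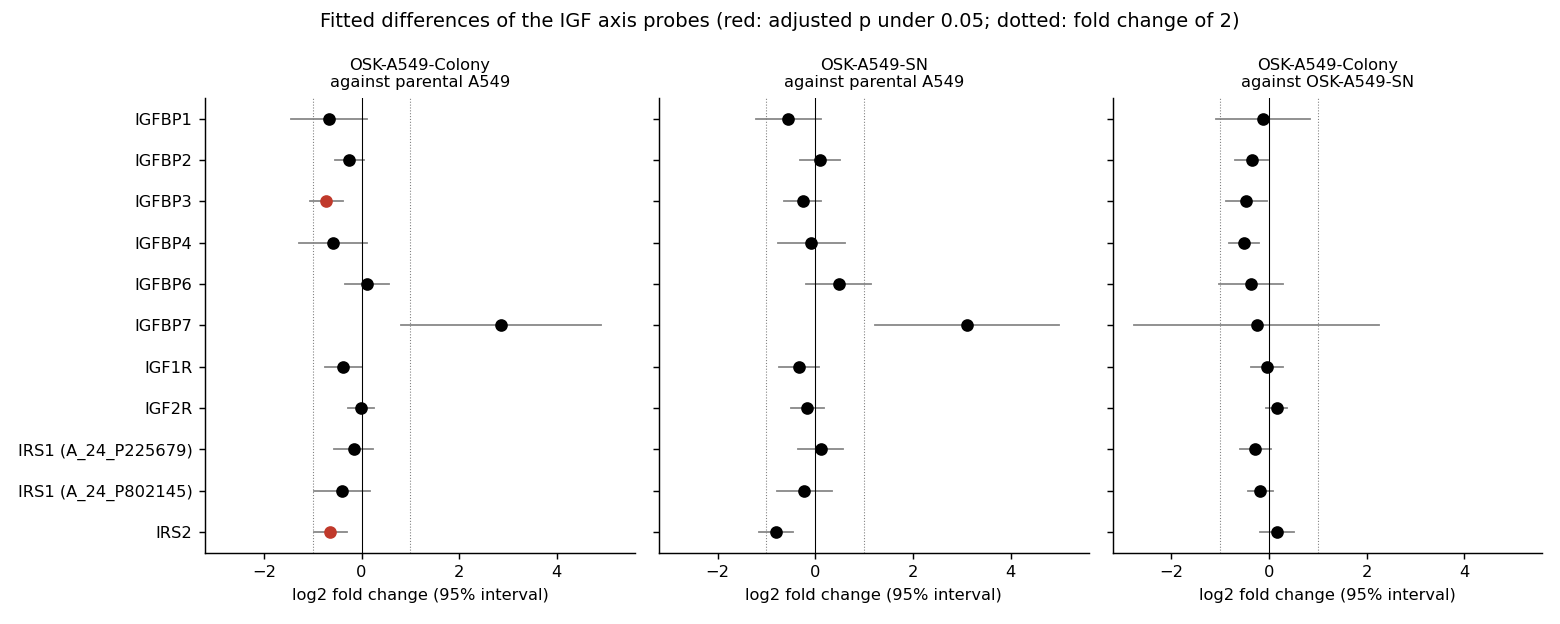
Log2 fold changes (horizontal axes) of the 11 probes in the 3 comparisons with 95% intervals from limma, a red point for an adjusted p under 0.05 and dotted lines at a fold change of 2. IGFBP3 and IRS2 are red in OSK-A549-Colony against parental A549, and IGFBP7 has by far the widest intervals.

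Over all members, none of the 11 probes was called at an adjusted p under 0.05 with a fold change over 2 in Colony against parental cells, where 3.71% of the 30869 probes tested were called. At an adjusted p under 0.05 with any fold change, 2 of 11 passed (IGFBP3 and IRS2), against 9.02% of all probes. At an unadjusted p under 0.05, 3 of 11 passed (these and IGFBP7), against 30.1%. The groups did not overlap for 6 of 11, against 41.6%. With 11 probes these shares are a description only. Of the 10 genes, 8 were lower in Colony, with a median of -0.31, against 52.9% of all probes and a median of -0.03.

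In SN against parental cells none of the 11 probes was called (1.54% of the 32222 probes tested), none had an adjusted p under 0.05 (1.82%) and 2 of 11, IGFBP7 and IRS2, had an unadjusted p under 0.05 (21.6%). The groups did not overlap for 5 of 11 (32.1%). Of the 10 genes, 6 were lower and 4 higher in SN, with a median of -0.12, against 42.7% lower and a median of 0.08 over all probes. Both comparisons use the same parental arrays.

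In Colony against SN cells no probe on the array was called by limma over the 31747 probes tested (0%), nor had any an adjusted p under 0.05 (0%). At an unadjusted p under 0.05 there were 3 of 11, IGFBP2, IGFBP3 and IGFBP4, against 19.5% of all probes, and the groups did not overlap for 4 of 11, against 30.8%. The fitted values of all 6 binding proteins were lower in Colony than in SN, from -0.51 to -0.12 with a median of -0.36, against 58.2% lower and a median of -0.06 over all probes. The sign held under every alternative tried for IGFBP2, IGFBP3, IGFBP4 and IGFBP6 and changed for IGFBP1 and IGFBP7 when single arrays were left out.

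The other genes of the pathway were read from 6 lists of 58 genes, 57 of which had a probe. In Colony against parental cells 50 could be tested, and 1 rose (STC2) and 1 fell (PDK4), 2 of 71 probes, against 3.71% of all probes. At an adjusted p under 0.05 with any fold change 6 of 71 passed, against 9.02%, and at an unadjusted p under 0.05 21 of 71 passed, against 30.1%. In the other comparisons, with 52 and 53 genes tested, none was called. In SN against parental cells 1 of 73 probes had an adjusted p under 0.05, against 1.82% of all probes, and 14 had an unadjusted p under 0.05, against 21.6%. In Colony against SN cells no adjusted p was under 0.05 (0% of all probes), and 15 of 75 probes had an unadjusted p under 0.05, against 19.5%.

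STC2, stanniocalcin 2, which inhibits the IGFBP4 protease PAPPA, was at -2.05, -2.19 and -2.80 in parental, at -1.15, -1.55 and -1.28 in SN and at -0.02, -0.63 and -0.04 in Colony cells. The groups formed 3 levels without overlap. STC2 rose 4.33-fold in Colony cells (log2 fold change 2.11, SE 0.27, limma adjusted p = 0.0222), and the log2 fold change was 1.34 under normexp background correction (limma adjusted p = 0.00436). The difference of SN from parental cells was 1.02 (SE 0.24, limma adjusted p = 0.0932) and that of Colony from SN cells was 1.097 (SE 0.21, limma adjusted p = 0.111). Under normexp background correction they were 0.52 and 0.82. When the adjustment was made only over the probes called against parental cells, the difference of Colony from SN cells was called (limma adjusted p = 0.0174), but that list was chosen on the same Colony arrays. The call against parental cells was lost without any 1 of the Colony arrays and without parental replicate 2, 4 of 6 such fits, with limma adjusted p of 0.0713 to 0.0949, and also with the replicate block (limma adjusted p = 0.119) and with no moderation (adjusted p = 0.0538 by limma's unmoderated fit). PAPPA itself was at -0.43 (SE 0.21, limma adjusted p = 0.235) in Colony against parental cells and ADAM12, another protease of binding proteins, at 0.18 (SE 0.23, limma adjusted p = 0.605). Of the 4 genes tested in this list, 3 were higher in Colony than in parental cells, with a median of 0.10.

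PDK4, a FOXO-responsive kinase that inhibits pyruvate dehydrogenase, was at 2.84, 2.94 and 2.82 in parental, at 1.92, 1.77 and 1.79 in Colony and at 2.09, 2.09 and 1.90 in SN cells. All transduced arrays lay below all parental arrays by a wide margin. PDK4 fell by 1.04 in Colony cells (SE 0.0993, limma adjusted p = 0.0156) and by 0.84 in SN cells (SE 0.13, limma adjusted p = 0.0445), the latter with a fold change under 2 and a limma adjusted p of 0.00689 to 0.186 under the alternatives. The call in Colony cells was lost in the same 4 of 6 fits as that of STC2 (limma adjusted p of 0.0563 to 0.101) and with the replicate block (limma adjusted p = 0.119), and under normexp correction the change was -0.99, just under the fold limit. Of the 11 FOXO factors and FOXO-responsive genes tested, 9 were lower in Colony than in parental cells (median -0.48) and 9 of 12 were lower in SN cells (median -0.37). Of all probes 52.9% were lower in Colony cells (median -0.03) and 42.7% in SN cells (median 0.08). Among the 9 genes lower in Colony cells, CCNG2 was well above background on 2 and SESN3 on 1 of the 3 Colony arrays. The genes counted for SN cells include PCK1, which was higher there and was well above background on 2 SN arrays and no parental array. FOXO4, with -1.17 (SE 0.29, limma adjusted p = 0.0636), and the cyclin gene CCNG2, with -1.15 (SE 0.33, limma adjusted p = 0.0858), had larger differences in Colony cells and did not pass the threshold. The muscle ubiquitin ligase gene FBXO32 had the largest in SN cells, at -0.93 (SE 0.19, limma adjusted p = 0.0779).

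Among receptors and adaptors, the insulin receptor gene INSR was at -0.08, 0.37 and 0.44 in parental, at -0.46, -0.57 and -0.69 in Colony and at -0.63, -0.59 and -0.61 in SN cells. The difference of Colony from parental cells was -0.82 (SE 0.17, limma adjusted p = 0.0457), and in SN cells the difference was -0.85 (SE 0.18, limma adjusted p = 0.0749). GRB10, an adaptor that restrains insulin and IGF1 receptors, was 0.65 higher in Colony than in parental cells by its brightest probe (SE 0.14, limma adjusted p = 0.0502). Another GRB10 probe, A_23_P122863, named after its value was seen, was at 0.69 (1.61-fold, limma adjusted p = 0.0273). With fold changes under 2, neither GRB10 probe nor INSR was called. For INSR and GRB10, and for PDPK1 and PIK3CB below, differences under the alternatives were not recorded. Over this list 5 of 9 genes were lower in Colony than in parental cells, with a median of -0.11.

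In the list of PI3K, AKT and mTOR genes, 9 of 19 were higher in Colony than in parental cells and 10 lower, with a median of -0.02. PDPK1, the kinase that activates AKT, was at 0.30, 0.22 and 0.16 in parental, at 0.80, 0.87 and 0.81 in Colony and at 0.74, 0.74 and 0.70 in SN cells. The difference from parental cells was 0.60 in Colony (SE 0.0945, limma adjusted p = 0.0293) and 0.50 in SN cells (SE 0.12, limma adjusted p = 0.0944). PIK3CB, a catalytic subunit of PI3K, was 0.53 higher in Colony than in parental cells (SE 0.12, limma adjusted p = 0.0485). EIF4EBP1, a translation repressor downstream of mTOR, was at 0.59 (SE 0.15, limma adjusted p = 0.0676).

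Of the ligands, the IGF1 probe A_23_P13907 was well above background on 1 Colony array and on no parental array, and the INS and IGFBP5 probes were so on no Colony or parental array. IGF2 was above background on all 9 arrays by the probe A_23_P150609, at -3.71, -2.01 and 0.32 in parental, at -2.97, -3.0003 and -2.59 in Colony and at -3.66, -3.42 and -3.33 in SN cells. The parental arrays spread over a range (SD 2.02) that covered every transduced array, and the differences from parental cells were -1.05 (SE 0.99, limma adjusted p = 0.504) in Colony and -1.67 (SE 0.97, limma adjusted p = 0.373) in SN cells. IGFALS, the partner of circulating IGFBP complexes, was at -0.91 (SE 0.56) in Colony and -0.68 (SE 0.49) in SN against parental cells, and IGFBPL1 at -0.15 and -0.31. The IGF2 mRNA-binding proteins IGF2BP1, IGF2BP2 and IGF2BP3 differed by at most 0.30 in any comparison.

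In SN against parental cells the lists gave 12 of 19 PI3K, AKT and mTOR genes higher (median 0.09) and 5 of 9 receptors and adaptors lower (median -0.12), against a median of 0.08 over all probes. Of the up to 3 largest differences of each list among probes that every array of the brighter group detected well above background, those not given above were 0.68 for ADAM12, -0.46 for PAPPA, -0.53 for the adaptor GRB14, -0.49 for the exchange factor SOS1, -0.35 and 0.34 for the mTOR partners RICTOR and RPTOR, and -0.76 for FOXO4. None of these passed the threshold. In Colony against parental cells the phosphatase gene PTPN11 was at 0.60 (SE 0.21, limma adjusted p = 0.132).

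In Colony against SN cells, 15 of 19 PI3K, AKT and mTOR genes and 7 of 9 receptors and adaptors were higher in Colony (medians 0.10 and 0.05), against 58.2% of all probes lower. No count is given for the FOXO list, in which PCK1 was well above background on 0 Colony and 2 SN arrays and SESN3 on 1 Colony and 3 SN arrays. Among probes that every array of the brighter group detected well above background, the 3 largest differences were those of SESN3, CCNG2 (-0.65) and FOXO4 (-0.42) in the FOXO list and -0.76 for PIK3R3, 0.42 for PIK3R1 and 0.33 for EIF4EBP1 in the PI3K list. GRB10 was at 0.46, GRB14 at 0.29, PTPN11 at 0.26, ADAM12 at -0.49, HTRA1 at 0.05 and IGF2 at 0.62. None of these passed the threshold, and the lowest limma adjusted p among them was 0.144, that of GRB10. CCNG2 and PIK3R3 were well above background on 2 of the 3 Colony arrays.

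**Figure D3:**
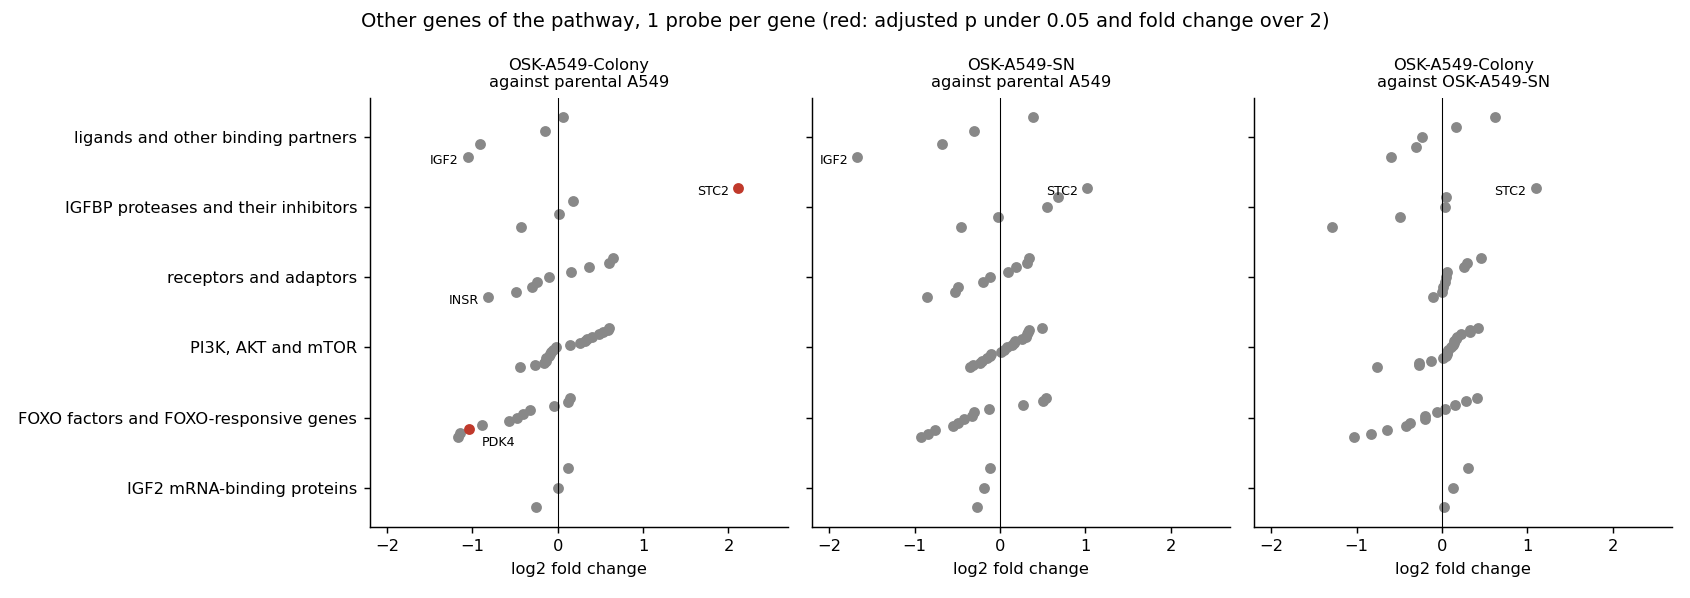
Log2 fold changes (horizontal axes) of the other genes of the pathway, by list, with 1 point for the brightest probe of each gene tested and red for an adjusted p under 0.05 with a fold change over 2. STC2 (2.11) and PDK4 (-1.04) in OSK-A549-Colony against parental A549 are the red points.

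IGFBP7 had the largest range of group means of the members, 3.10, so the genes with the most similar values over the 9 arrays were listed for it. Likeness was the root mean square difference of log2 values after each probe's own mean was subtracted, over 18635 named probes well above background on all arrays. The 5 most alike were KLF4 (0.53), SPNS2 (0.59), POU5F1 by the probe A_24_P144601 (0.62), LINC00707 (0.73) and BIK (0.82). KLF4 and POU5F1 are 2 of the 3 transduced factors, and their values on each array are given above. SPNS2, a sphingosine-1-phosphate transporter gene, was at -0.93, -0.84 and -0.03 in parental, at 2.37, 1.54 and 0.38 in Colony and at 2.18, 1.75 and 0.48 in SN cells. BIK, a pro-apoptotic BCL2 family gene, was at -1.91, -1.74 and -1.45 in parental, at 1.04, -0.06 and -1.33 in Colony and at 0.44, -0.01 and -1.18 in SN cells. In all 6 genes replicate 3 was the lowest of both transduced groups, a trait of IGFBP7 that choosing genes by likeness to it favours. The list is a description of 9 arrays and carries no test.

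**Figure D4:**
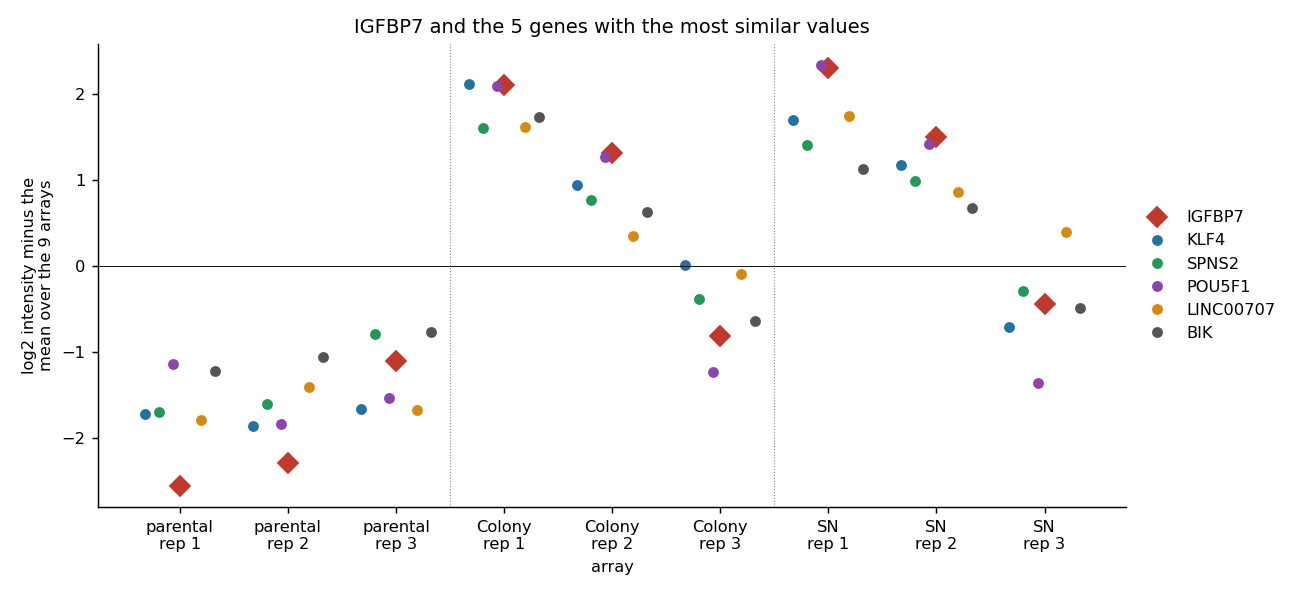
Log2 intensity minus the mean over the 9 arrays (vertical axis) of IGFBP7 (diamonds) and the 5 genes with the most similar values (circles) on each array (horizontal axis), with dotted lines between the groups. Replicate 3 of OSK-A549-Colony and of OSK-A549-SN lies below the other replicates of its group for all 6 genes, which the choice by likeness to IGFBP7 favours.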

How the data were processed

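Total RNA of 9 samples in 3 groups was hybridised to SuperPrint G3 arrays in 1 colour, 1 array per sample. The authors deposited the intensity of each spot from Agilent Feature Extraction 11.5.1.1 per the submitters' processing notes, background already subtracted and not scaled between arrays, and a log2 table, which the authors made in GeneSpring GX 13.0. The deposited log2 values equalled those computed here plus 1 constant per array, within 0.001 for 100% of probes.

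Control spots (4259 of 62976) and spots flagged as outliers (357 to 484 per array) were left out, except for 0 to 3 probes per array whose spots were all flagged. Spots of a probe were averaged and the 75th percentile (217.5 to 270.7 intensity units) was subtracted on the log2 scale. Between 25809 and 29316 probes were detected per array, and no spot was saturated. Gene names came from RefSeq accessions (32065 probes, 30275 with 1 name). The array number limits the precision.

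Each comparison was fitted with limma 3.58.1 in R 4.3.3 on its own 6 arrays over probes detected on at least 1 of them, with Benjamini-Hochberg adjustment over all of these. Calls needed a fold change over 2 as well as an adjusted p under 0.05. The fit was tested on simulated data. Alternatives were normexp background correction (offset 50, on the median spot brightness), quantile normalization, other detection filters, no moderation, 1 fit over 9 arrays, the deposited log2 table, slide or replicate number as a block, and leaving out arrays. Of 2 slides, the first held 8 arrays and the second SN replicate 3.

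The member genes and the other lists were chosen with earlier results of these data known. Named were all members, each pathway gene called or, failing that, among the 3 largest differences in its list, and the 5 genes most like the member with the largest range of group means. IGF1, INS, IGFBP5 and PCK1 were named besides, for their detection. GRB10 probe A_23_P122863 and the POU5F1 and SOX2 probes were added after their values were seen. GRCh38.p14 promoters were matched by symbol.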

Additional observations from a re-analysis of the deposited data

How the results depend on the processing

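With 3 arrays per group, the number of calls changed widely when 1 array was left out, and the members other than IGFBP7 all had fold changes under 2 and so could not be called. Of 587 values recomputed under alternatives, 556 were classed as unchanged. For a fold change this meant the same sign and the same outcome, called or not called. Since members with fold changes under 2 could not be called, shifts of their adjusted p alone were not counted. IGFBP3 and IRS2 in Colony against parental cells were classed as unchanged in all 14 alternatives. Their adjusted p nevertheless lay on both sides of its threshold, at 0.0129 to 0.137 and 0.0159 to 0.170. Probes of the 10 genes called against parental A549 were 0 in Colony and in SN, but 1 and 1 (IGFBP7 in both) with the stricter detection filter, 1 in SN with normexp (IGFBP7) and 2 in Colony with no fold change condition (IGFBP3 and IRS2).

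All probes called in Colony against parental cells numbered 1145, but 333 with normexp, 582 with no detection filter, 0 with the replicate block, 336 with no moderation, 2785 with no fold change condition and 0 to 1352 when 1 array was left out. The lowest counts came without Colony replicate 2 (0), parental replicate 2 (1), Colony replicate 3 (83) and Colony replicate 1 (140), and the counts were 1352 without parental replicate 1 and 1087 without parental replicate 3. In SN against parental cells they numbered 497, but 232 with normexp, 215 with no detection filter, 981 with the stricter filter, 0 with the replicate block, 1084 with all 9 arrays in 1 fit, 5 with no moderation, 187 with slide as a block and 0 to 190 without 1 array. In Colony against SN cells there were 0, but 32 with normexp, 139 with the stricter filter, 9 with all 9 arrays and 99 when adjusted over the probes called against parental cells. No probe was called there without replicate 3 of both groups (0), a setting chosen after seeing the data. Probes of the other pathway genes called in Colony against parental cells were 2, but 1 with normexp, 4 with the stricter filter, 0 with the replicate block, 4 with all 9 arrays, 1 with no moderation, 6 with no fold change condition and 0 to 3 without 1 array. In SN cells they were 0, but 1 with the stricter filter, with all 9 arrays and with no fold change condition, and 1 in Colony against SN cells when adjusted over the called probes (STC2). The cause was not tested.

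The sign turned for small differences. IGF2R in Colony against parental cells became 0.0179 with normexp and ranged from -0.0553 to 0.0684 without 1 array, with 0.0197 without Colony replicate 2. In SN against parental cells IGFBP2 became -0.0102 with quantile normalization, IRS1 (A_24_P225679) ranged from -0.001166 to 0.253 and IGFBP4 from -0.290 to 0.218 without 1 array. In Colony against SN cells the range without 1 array was -1.03 to 0.591 for IGFBP7, -0.133 to 0.0501 for IGF1R and -0.447 to 0.142 for IGFBP1, with the positive values where Colony replicate 3 or SN replicate 1 was left out and, for IGFBP1, also SN replicate 2. Slide could not be fitted in Colony against parental cells, whose arrays shared 1 slide.

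Replicate numbers were shared by the groups. Deviations of same-numbered arrays correlated at 0.24, 0.07 and 0.14 between Colony and SN, at -0.01, -0.05 and -0.02 between Colony and parental cells and at 0.15, -0.20 and -0.01 between SN and parental cells. The labels do not say that the numbers pair the samples, and the main fits did not pair them. Each Colony array correlated best with the SN array of its own number, a hint from the data, and Colony and SN arrays of the same number have the same passage in the labels. By the methods, SN cells were collected from the dishes that held the colonies, so same-numbered Colony and SN arrays may be paired. The SEs and intervals given for Colony against SN cells take no account of that. With the replicate block there were 0 calls in all 3 comparisons (in Colony against SN cells also without it).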
